A study of Mus musculus with 1 sample.

Results

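The neutrophil primary granule genes described here were Mpo, Elane, Prtn3, Ctsg and Prss57, taken as the rows of the count matrix that carry these symbols. They were 5 of 32285 genes and each symbol matched 1 row. The genes were followed in 1 single-cell RNA-seq library, WT_HSPC, of bone marrow cells of femora and tibiae sorted as lineage-negative and cKit-positive (LK), from control mice of strain C57BL/6 with the genotype Brd9fl/fl, in which both copies of Brd9 are floxed and no Cre deletes them. From 4 weeks after birth by the design text, the mice had received pIpC, an inducer of interferon, at 20 mg/kg in 3 doses, and cells were prepared 8 weeks later. The labels also name a CD45.2(+) donor and a CD45.1(+) CD45.2(-) recipient of a bone marrow transplant, while the design text and the study's methods name primary mice, and which of these holds was not settled. How many mice gave the library is not stated in the sources used here. With 1 library there was no replicate, so no test was made, and every interval below is a 95% interval of counting error alone: exact Poisson for levels, exact conditional binomial for folds and Clopper-Pearson for shares.

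Primary granules, also called azurophil granules, are the granules that a neutrophil precursor fills at the promyelocyte stage, before the secondary and tertiary granules are made. Mpo encodes myeloperoxidase, which makes hypochlorous acid from hydrogen peroxide. Elane (neutrophil elastase), Prtn3 (proteinase 3), Ctsg (cathepsin G) and Prss57 (a further neutrophil serine protease) encode the serine proteases stored beside it. Transcription of these genes is known to start in granulocyte-monocyte progenitors and to stop before the cell matures, so that a mature neutrophil carries the proteins and little of the mRNA, and monocyte precursors make several of them for a time. The transcription factors Cebpa and then Cebpe mark the path to the neutrophil, and F13a1, which encodes the A chain of coagulation factor XIII, marks the monocyte path.

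Prtn3, Elane and Prss57 lie close together on chromosome 10. In the GENCODE annotation of GRCm38, Prss57 (ENSMUSG00000020323) spans chr10:79781474-79790961, minus strand, Prtn3 (ENSMUSG00000057729) spans chr10:79874476-79883174, plus strand, and Elane (ENSMUSG00000020125) spans chr10:79886247-79888215, plus strand. Mpo (ENSMUSG00000009350) spans chr11:87793581-87804413, plus strand, and Ctsg (ENSMUSG00000040314) spans chr14:56099881-56102574, minus strand. All 5 are annotated as protein-coding. Mpo, Prtn3 and Prss57 overlap Gm11505, Plppr3 and Fstl3 on the other strand. Whether the counting used strand is not given in the sources used here, and these partners were low in Cebpe-positive cells, at 6.62, 39.8 and 1.86 CPM (UMIs of a gene per 1000000 UMIs). Where the gates defined below separate Flt3-positive from Cebpe-positive cells, the genes between and beside the chromosome 10 members differed far less than the members. Palm was 1.96-fold (1.71 to 2.26), Plppr3 0.885-fold (0.781 to 1.005), Ptbp1 0.735-fold (0.688 to 0.786) and Med16 0.503-fold (0.418 to 0.607) their level in Flt3-positive cells, and Cfd, which lies just past Elane, had 7 UMIs in all Cebpe-positive cells against 206452 for Elane.

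Promoter sequence from RefSeq (GRCm38.p6, 250 bases before to 50 after the RefSeq start) was given for Mpo, Elane, Prtn3 and Ctsg, and not for Prss57. Each of the 4 promoters held the letters GGAAGT 1 time on its own strand, the core of a site for ETS factors such as Spi1 (PU.1), and 23.8% of 32851 promoters of the same length held it on either strand. The 30 bases around it are shown for these genes because it was the letter string searched for that all 4 share. Sequences run 5′ to 3′ on the strand of the gene and capitals mark the GGAAGT.
Mpo (chr11:87793550-87793579, plus strand): tggagagagagaGGAAGTtgcctttgtccc
Elane (chr10:79886217-79886246, plus strand): gtgtcccagggaGGAAGTagggctgtggcc
Prtn3 (chr10:79879562-79879591, plus strand): aaactggaaggaGGAAGTgggacccacagc
Ctsg (chr14:56102762-56102791, minus strand): agaggaagaaaaGGAAGTagtcacctgttt
The match began 222, 83, 93 and 205 bases before the RefSeq start of Mpo, Elane, Prtn3 and Ctsg. By the GENCODE annotation the windows of Mpo, Elane and Ctsg lie outside the gene, on its upstream side, and that of Prtn3 lies in an intron, since the GENCODE span of Prtn3 starts further upstream than the RefSeq start. The GENCODE starts of Mpo (87793581) and Elane (79886247) also lie upstream of the RefSeq start, just past these windows. The distances given hold for the RefSeq start alone. Other letters were searched on both strands and the 4 promoters differed in them. TTGCNNAA, for C/EBP factors, was in none of the 4 and in 10.8% of all promoters. TGTGGT, for Runx factors, was in Ctsg alone, 1 time, and in 16.8% of all. AACTG, for Myb, was found 1 time in Mpo, 1 time in Prtn3 and 2 times in Ctsg, not in Elane, and in 44.8% of all. No match of one string shared a base with a match of another in these promoters. The strings are short, and a match describes the letters and not a bound site.

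The library held 8817 barcodes with 167452386 unique molecular identifiers (UMIs, 1 per captured mRNA molecule). The study's cell filter kept 7645 cells with 151852381 UMIs, at a median of 18696 UMIs per cell and a range of 1592 to 49991. The 5 genes took 1.08% of all UMIs of the kept cells. Cells were placed along the myeloid path by marker UMIs other than the 5 genes. Flt3-positive cells had at least 2 Flt3 UMIs and fewer than 2 of Cebpe and of F13a1, Cebpe-positive cells at least 2 Cebpe and fewer than 2 F13a1 UMIs, and F13a1-positive cells the reverse. Cebpa-positive cells had at least 2 Cebpa UMIs, fewer than 2 of Flt3, Cebpe and F13a1, and none of Gata2 and Klf1, and Hlf-positive cells, the gate for stem cells, had Hlf and no UMI of Flt3, Cebpa, Cebpe, F13a1 or Klf1. The gates held 1008 Hlf-positive, 538 Flt3-positive, 91 Cebpa-positive, 795 Cebpe-positive and 1895 F13a1-positive cells. They are ranges of marker counts, not cell types, and a cell can miss a gate for lack of depth. Of the Cebpe-positive cells 74.0% were in the neutrophil lineage-like cluster, of the F13a1-positive cells 74.4% in the monocyte-like clusters, and of the Flt3-positive cells 58.6% in the Flt3 progenitor-like and 16.9% in the dendritic-like cluster. Levels are summed UMIs of a gene per 1000000 summed UMIs of the group, in CPM. A 3′ library counts transcript ends, which do not scale with gene length. Folds are taken within a gene, and ratios and shares between genes are of counted UMIs and are compared between groups of cells.

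Within Flt3-positive cells, Mpo, Elane, Prtn3 and Ctsg were higher where Cebpa, the factor that opens the granulocyte-monocyte path, was counted. Cells with 2 or more Cebpa UMIs (68 cells) were set against those with none (365 cells). Mpo stood at 373 CPM (357 to 390.0) in cells with no Cebpa UMI, at 965 CPM (921 to 1011) with 1 and at 2084 CPM (2010.0 to 2161) with 2 or more, 5.58-fold (5.27 to 5.91) the level of the cells with none. Elane went from 55.1 CPM (49.1 to 61.7) over 190.2 CPM (171 to 211) to 629.9 CPM (589 to 673), 11.4-fold (10.02 to 13.1), the widest step of the 5 with these gates. A minority of cells carried these Elane levels: the lower quartile, median and upper quartile of single cells were 0, 37.1 and 88.6 CPM with 1 Cebpa UMI and 0, 66.6 and 174 CPM with 2 or more, against 559.8, 1569.8 and 2599 CPM for Mpo in the latter. Prtn3 was 4.16-fold (3.91 to 4.42) and Ctsg 5.72-fold (5.36 to 6.10). All of these intervals lay apart from 1. Prss57 differed least, with 49.6 CPM (43.9 to 55.9) against 81.2 CPM (67.0 to 97.5), 1.64-fold (1.30 to 2.04). A gene was counted as higher at 2-fold or more with the interval above 1. By that rule 4 of the 5 genes were counted, beside 0.836% of the 8970 genes with 50 or more UMIs in both groups together. The median fold was 5.58 over the 5 genes and 0.967 over all of these.

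The cells with 2 or more Cebpa UMIs were also deeper, with a median of 19438 UMIs against 13749, and they held more basophil transcripts (Mcpt8 234 against 12.2 CPM) and less Irf8, a factor of dendritic cells and monocytes (376 against 787 CPM). The part of depth and of these cells in the difference was not tested. In the Flt3 progenitor-like cluster alone (41 and 221 cells), a comparison added after the data were seen, Mpo was 4.63-fold, Elane 5.47-fold, Prtn3 3.43-fold, Ctsg 4.90-fold and Prss57 1.51-fold. Where the gates were read at 1 UMI on cells thinned to equal depth, which left 7 cells with 2 or more Cebpa UMIs against 468 with none, Mpo was 3.45-fold, Elane 3.52-fold, Prtn3 2.79-fold, Ctsg 3.58-fold and Prss57 2.16-fold, and with so few cells the order of these folds was not read.

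**Figure D1:**
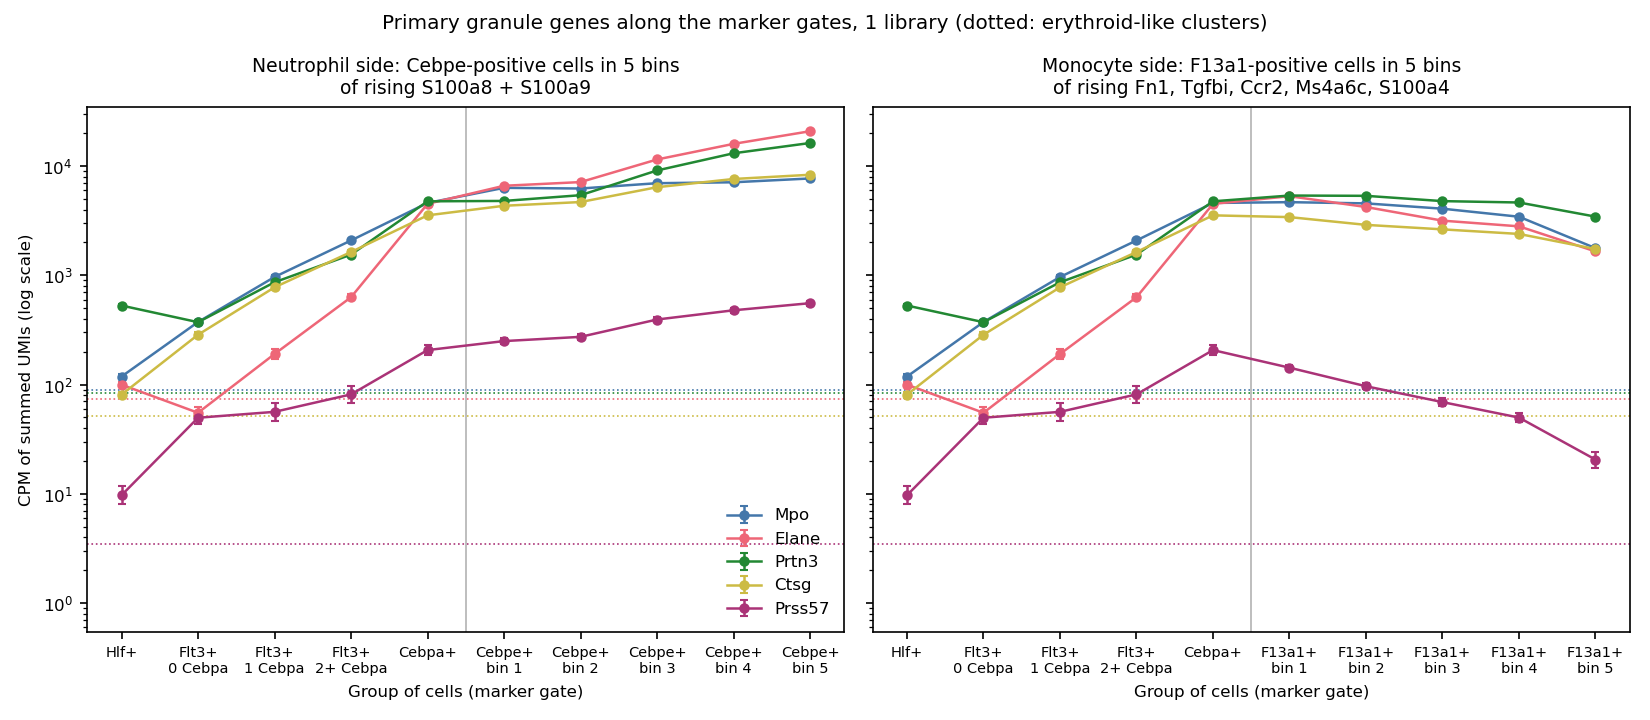
Level of each of the 5 genes (log axis, CPM of summed UMIs, with 95% Poisson intervals) in groups of cells set by marker UMIs, with the neutrophil side on the left and the monocyte side on the right, and dotted lines at the level in erythroid-like clusters. Mpo, Elane, Prtn3 and Ctsg lie between 55.1 and 373 CPM in Flt3-positive cells without Cebpa and between 7702 and 20849 CPM in the last Cebpe-positive bin, and within the F13a1-positive bins each of the 5 genes is lowest in the last.

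The share of cells with a UMI was compared at equal depth, after each cell was thinned to 5000 UMIs. Of the 5 genes, Elane was the least apart from erythroid cells in the Flt3-positive cells with no Cebpa UMI. It was found in 19.5% (15.5 to 23.9) of them, beside 16.4% (14.3 to 18.7) in erythroid-like clusters, which should lack it, 14.9% (12.8 to 17.1) in those without doublet calls and 15.3% (12.9 to 17.9) in the Klf1-gated erythroid cells described below, and these intervals overlapped. Its level of 55.1 CPM (49.1 to 61.7) was below that of all erythroid-like cells, 73.0 CPM (70.2 to 75.8), and above that without doublet calls, 34.9 CPM (33.0 to 36.9), and of Klf1-gated cells, 31.6 CPM (29.6 to 33.7), so whether Elane exceeded background depended on the erythroid cells taken. Median depth before thinning was 13749 and 33466 UMIs. In the same Flt3-positive cells Mpo was found in 50.7% (45.4 to 55.9), Prtn3 in 62.7% (57.6 to 67.7) and Ctsg in 38.6% (33.6 to 43.8), against 20.9%, 20.3% and 11.2% in erythroid-like clusters. Prss57 was found in 19.2% (15.3 to 23.6) against 2.03%, a wider gap than that of Elane. Unthinned, the shares in these Flt3-positive cells were 70.4% for Mpo, 40.3% for Elane, 78.4% for Prtn3, 57.3% for Ctsg and 40.3% for Prss57. Cell by cell in the thinned cells, Mpo without Elane was found in 144 and Elane without Mpo in 30 of the 365 Flt3-positive cells with no Cebpa UMI, and in 28 and 1 of the 68 with 2 or more.

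**Figure D2:**
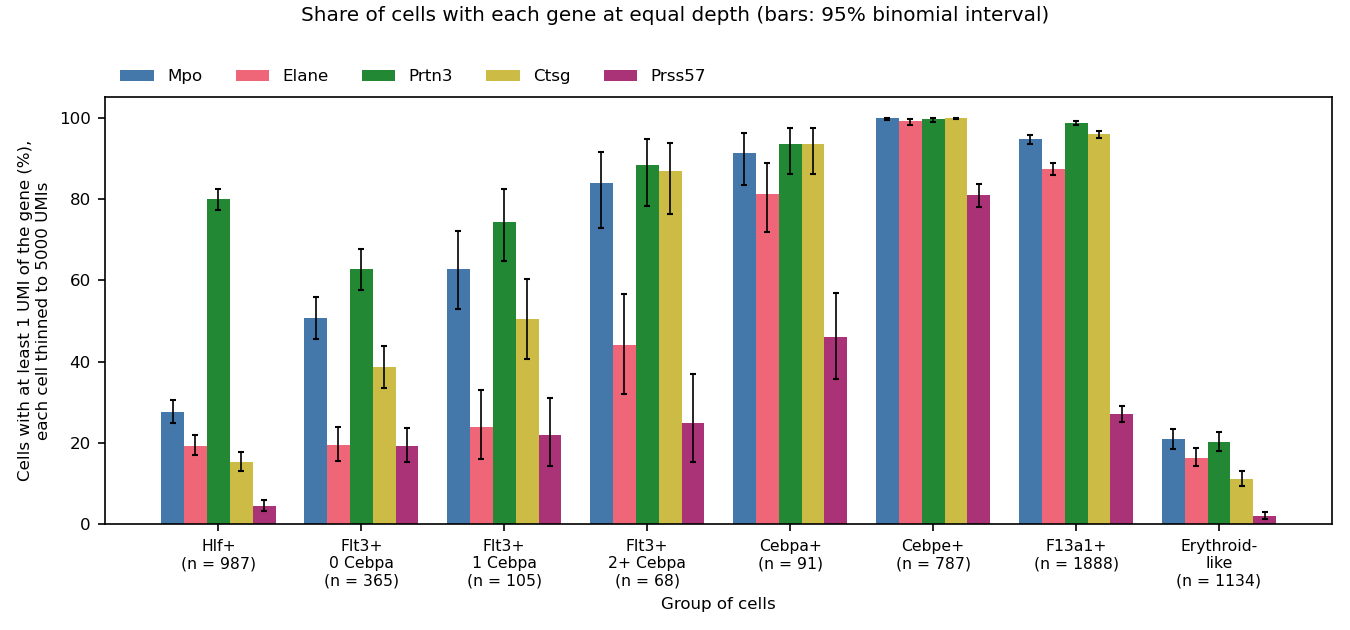
Share of cells (%) with at least 1 UMI of each gene after thinning each cell to 5000 UMIs, by group of cells, with 95% binomial intervals and the number of thinned cells. Elane is at 19.5% in Flt3-positive cells without Cebpa and 81.3% in Cebpa-positive cells, and Prtn3 is at 79.9% already in Hlf-positive cells.

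In Cebpa-positive cells, which had neither 2 Flt3 nor 2 Cebpe nor 2 F13a1 UMIs, all 5 genes were over 2-fold their level in Flt3-positive cells with 2 or more Cebpa UMIs. These 91 cells were a mixture, with 39 in the Flt3 progenitor-like cluster, 25 in monocyte-like clusters and 17 in the neutrophil lineage-like cluster, of which the Flt3-positive cells compared with had none, and the part of that mixture in the difference was not tested. Mpo stood at 4597 CPM (4499.7 to 4696), Prtn3 at 4757 CPM (4658 to 4858), Ctsg at 3539 CPM (3454 to 3626) and Prss57 at 207 CPM (186 to 228). The steps were 2.21-fold (2.11 to 2.30) for Mpo, 3.07-fold (2.93 to 3.22) for Prtn3, 2.17-fold (2.07 to 2.27) for Ctsg and 2.54-fold (2.06 to 3.16) for Prss57. Elane again made the widest step, to 4509 CPM (4413 to 4607), 7.16-fold (6.68 to 7.68). Single cells of this gate differed widely in Elane, with a lower quartile, median and upper quartile of 191, 2212 and 7489 CPM. The number of Elane UMIs per Mpo UMI was 0.15 in Flt3-positive cells with no Cebpa UMI, 0.30 with 2 or more and 0.98 in Cebpa-positive cells. All 5 genes were found together in 1.92%, 11.8% and 42.9% of these cells at equal depth.

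Cebpe-positive cells, on the path to the neutrophil, held the 5 genes at the highest levels of the marker gates. Against Flt3-positive cells, Mpo was 6826 CPM over 776 CPM, 8.80-fold (8.59 to 9.02). Elane was 11987 CPM over 177 CPM, 67.8-fold (64.5 to 71.3), the widest difference of the 5, and Prtn3 9403 CPM over 666 CPM, 14.1-fold (13.7 to 14.5). Ctsg was 6164 CPM over 608 CPM, 10.1-fold (9.87 to 10.4), and Prss57 382 CPM over 56.1 CPM, 6.80-fold (6.20 to 7.46). All 5 genes were counted as higher, beside 3.74% of 10764 genes, with a median fold of 10.1 over the 5 and 0.776 over all. Elane's fold was 30.3 with gates read on thinned counts, 102 with gates at 3 UMIs and 155 with the Flt3 progenitor-like and neutrophil lineage-like clusters alone (added after the data were seen), and it was the widest of the 5 in each. At equal depth Mpo, Prtn3, Ctsg and Elane were each found in nearly every cell (99.9%, 99.6%, 100% and 99.1%), Prss57 in 80.9% (78.0 to 83.6), and all 5 together in 80.3%. Cells differed far less in Mpo than in Elane: the lower quartile, median and upper quartile of single cells were 5877, 7225 and 8322 CPM for Mpo and 6672, 12281 and 18427 CPM for Elane.

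To follow the neutrophil side further, Cebpe-positive cells were put in 5 equal bins by their summed S100a8 and S100a9, the calprotectin genes that come on as the neutrophil precursor matures. The 5 genes did not decline along these bins: Mpo was the most even and the proteases were higher toward the last bin. Elane stood at 6601 CPM (6518 to 6686) in the lowest bin, 11491 CPM (11381 to 11601) in the middle bin and 20849 CPM (20683 to 21017) in the highest, 3.16-fold (3.11 to 3.21). Prtn3 went from 4796 CPM (4725 to 4868) to 16266 CPM (16119 to 16414), 3.39-fold (3.33 to 3.45), Prss57 from 249.9 CPM (234 to 267) to 556 CPM (529 to 583), 2.22-fold (2.05 to 2.41), and Ctsg from 4332 CPM (4264 to 4399.9) to 8326 CPM (8221 to 8432), 1.92-fold (1.88 to 1.96). Mpo went from 6321 CPM (6239 to 6403) to 7702 CPM (7601 to 7804), 1.22-fold (1.196 to 1.24). None of the 5 was counted as lower, beside 11.6% of 7742 genes, and 3 (Elane, Prtn3 and Prss57) were counted as higher, beside 1.74%. The median fold was 2.22 over the 5 genes and 0.797 over all. Together the 5 genes took 2.23% of all UMIs in the lowest and 5.37% in the highest bin.

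Counted per cell and not per UMI, Mpo was highest in the middle of these 3 bins, at 144 UMIs per cell in the lowest, 159.8 in the middle and 139.5 in the highest bin, while Elane went from 150.4 to 378. Cells of the highest bin had fewer UMIs, with a median of 18076 against 22177. The number of Elane UMIs per Mpo UMI was 1.04 in the lowest, 1.65 in the middle and 2.71 in the highest bin. Bins 1 and 2 had no or hardly any S100a8 and S100a9 (medians of 0 and 0 CPM, against 4376 CPM in bin 5), so cells without either gene were split between them by file order. The bins also differed in their clusters: bin 1 had 40.9% neutrophil lineage-like, 30.8% Flt3 progenitor-like and 13.2% eosinophil-like cells, and bin 5 had 98.7% neutrophil lineage-like cells. Prg2, the eosinophil major basic protein, stood at 2697 CPM in bin 1 and 4.17 CPM in bin 5. In the neutrophil lineage-like cluster alone, a comparison added after the data were seen (118 and 117 cells in the lowest and highest bins), Elane was 2.11-fold, Prtn3 2.41-fold, Prss57 1.60-fold, Ctsg 1.46-fold and Mpo 1.06-fold. Even with 10 bins, also added later, the last bin (79 cells, 8552 CPM of S100a8 and S100a9 at the median) had Elane at 22015 and Mpo at 7888 CPM, above the 19868 and 7539.6 CPM of the bin before it. Of the 5 genes Ctsg alone was lower in the last than in the bin before it, and its intervals overlapped, at 8218 CPM (8068 to 8369.6) against 8468 CPM (8320 to 8618). The secondary granule gene Camp stood at 58.9 CPM and Ltf at 0 in the last bin. The sort for lineage-negative, cKit-positive cells takes out later neutrophil stages, where a decline would be looked for, and these were not measured here.

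F13a1-positive cells, on the monocyte path, held all 5 genes at lower levels than Cebpe-positive cells. Mpo stood at 3799 CPM (3780.2 to 3817), 0.556 (0.552 to 0.561) of the level in Cebpe-positive cells, and Prtn3 at 4777 CPM (4756 to 4798), 0.508 (0.505 to 0.511) of it. Ctsg stood at 2663 CPM (2648 to 2679), 0.432 (0.428 to 0.436) of that level, Elane at 3535 CPM (3517 to 3552), 0.295 (0.293 to 0.297) of it, and Prss57 at 79.2 CPM (76.6 to 81.9), 0.208 (0.199 to 0.216) of it. A gene was counted as lower at 0.5 of the level or less with the interval below 1, which 3 of the 5 met (Elane, Ctsg and Prss57), beside 3.51% of 11479 genes. The median was 0.432 of the level over the 5 and 1.09 over all. Prtn3 lay so near the limit that it was counted as well under several of the other settings tried. At equal depth Prtn3 was found in 98.7% (98.1 to 99.2), Ctsg in 95.9% (94.9 to 96.8), Mpo in 94.7% (93.5 to 95.6), Elane in 87.4% (85.9 to 88.9) and Prss57 in 27.1% (25.1 to 29.2) of F13a1-positive cells.

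Along 5 equal bins of F13a1-positive cells by summed Fn1, Tgfbi, Ccr2, Ms4a6c and S100a4, genes of the later monocyte, all 5 genes were lower in the highest than in the lowest bin. Prss57 differed most, from 143 CPM (135 to 150.4) over 69.0 CPM (63.7 to 74.7) to 20.5 CPM (17.4 to 24.1), 0.144 (0.121 to 0.171) of the lowest bin. Elane went from 5299 CPM (5252 to 5345) over 3165 CPM (3129 to 3202) to 1654 CPM (1624 to 1684), 0.312 (0.306 to 0.318) of the lowest bin. Mpo went from 4674 CPM (4630.0 to 4717) over 4072 CPM (4031 to 4114) to 1772 CPM (1742 to 1803), 0.379 (0.372 to 0.387) of it, with most of its drop between bins 4 and 5 (3438 CPM in bin 4). Ctsg went from 3410.4 CPM (3373 to 3448) to 1739 CPM (1709 to 1769.8), 0.510 (0.4995 to 0.521) of it. Prtn3 was kept longest, from 5373 CPM (5326 to 5420.1) over 4778 CPM (4733 to 4823) to 3445 CPM (3403 to 3488), 0.641 (0.632 to 0.651) of it, and its share of the UMIs of the 5 genes went from 28.4% to 39.9%. The rule counted 3 of the 5 as lower (Mpo, Elane and Prss57), beside 5.58% of 9850 genes, with a median of 0.379 of the level over the 5 and 1.02 over all. Per cell the UMIs went from 116 to 33.9 for Mpo and from 134 to 65.9 for Prtn3. In single cells of the highest bin the lower quartile, median and upper quartile were 438, 1566 and 2630.4 CPM for Mpo and 2121, 3578 and 4593 CPM for Prtn3.

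The lowest of these bins held more doublet calls (12.4% of cells) than the highest (2.11%). Without doublet calls, 4 of the 5 genes were counted. Where every marker threshold was set at 1 UMI, so that 1 F13a1 UMI let a cell in and 1 Cebpe UMI kept it out, Prtn3 turned to 1.27 times the lowest bin, Mpo stood at 0.715, Elane at 0.643, Ctsg at 0.888 and Prss57 at 0.274 of it, and 1 of the 5 (Prss57) was counted. Within the monocyte-like clusters alone (282 and 281 cells), added after the data were seen, Mpo was at 0.391, Elane at 0.346, Prtn3 at 0.642, Ctsg at 0.547 and Prss57 at 0.157 of the lowest bin. The 256 cells with at least 2 UMIs of both Cebpe and F13a1, 49.2% of them in the neutrophil lineage-like and 43.8% in the monocyte-like clusters, stood nearer the Cebpe-positive cells: Mpo was at 5936 CPM (5877 to 5996), Elane at 9874 CPM (9798 to 9952), Prtn3 at 8799 CPM (8726 to 8871), Ctsg at 5199 CPM (5144 to 5255) and Prss57 at 293 CPM (279.6 to 306), which was 0.767 to 0.936 of the level in Cebpe-positive cells. Of these cells 4.69% were doublet calls, and the part of doublets in their level was not tested.

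Across the 18 clusters, made without the 5 genes in the components, all 5 were highest in the neutrophil lineage-like cluster led by S100a8 and S100a9 (824 cells). Its levels were 7261 CPM (7221 to 7300.3) for Mpo, 14429 CPM (14373 to 14485) for Elane, 11421 CPM (11372 to 11471) for Prtn3, 7090.2 CPM (7051 to 7129) for Ctsg and 446 CPM (437 to 456) for Prss57, and no interval of the next cluster reached these. The genes stood in different orders below it. Mpo was next in the eosinophil-like cluster led by Prg2 and Prg3 (42 cells) at 5597 CPM (5409 to 5789.8), and then in the monocyte-like clusters led by F13a1 and Mgst1, at 5281 CPM (5248 to 5314), by Hist1h2bm and Slpi, at 4662 CPM (4623 to 4700.1), and by Fn1 and Lyz2, at 2289 CPM (2256 to 2324). The last of these did not differ beyond the intervals from the basophil or mast cell-like cluster. Between those led by Hist1h2bm and by Fn1 stood the unnamed cluster led by Ighg2b and Rpgrip1, at 2686 CPM (2633 to 2740). It had 163 cells, of which 30.1% were doublet calls. Elane stood in the same 3 monocyte-like clusters at 5178 CPM (5145 to 5210.2), 4612 CPM (4574 to 4650.2) and 2459 CPM (2424 to 2494), and Prtn3 at 6116 CPM (6081 to 6152), 5531 CPM (5489.7 to 5573) and 4300.0 CPM (4253 to 4347). Ctsg stood there at 3294 CPM (3268 to 3321), 3459.5 CPM (3427 to 3493) and 2256 CPM (2223 to 2290.4), where the eosinophil-like cluster, at 2356 CPM (2234 to 2482), overlapped with the last. Prss57 stood at 114 CPM (109 to 119) and 117 CPM (111 to 123) in the clusters led by F13a1 and by Hist1h2bm, whose intervals overlapped, and at 27.7 CPM (24.1 to 31.7) in that led by Fn1. In the Flt3 progenitor-like cluster led by Dntt and Tespa1 (887 cells) the levels were 2227 CPM (2203 to 2251) for Mpo, 909 CPM (894 to 925) for Elane, 1605 CPM (1584 to 1625) for Prtn3, 1439 CPM (1419 to 1458) for Ctsg and 75.2 CPM (70.9 to 79.8) for Prss57. The name of this neutrophil lineage-like cluster rests on markers that hold none of the 5 genes, of which S100a8, S100a9 and Cebpe were among its 10 leading genes, as was Elane.

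**Figure D3:**
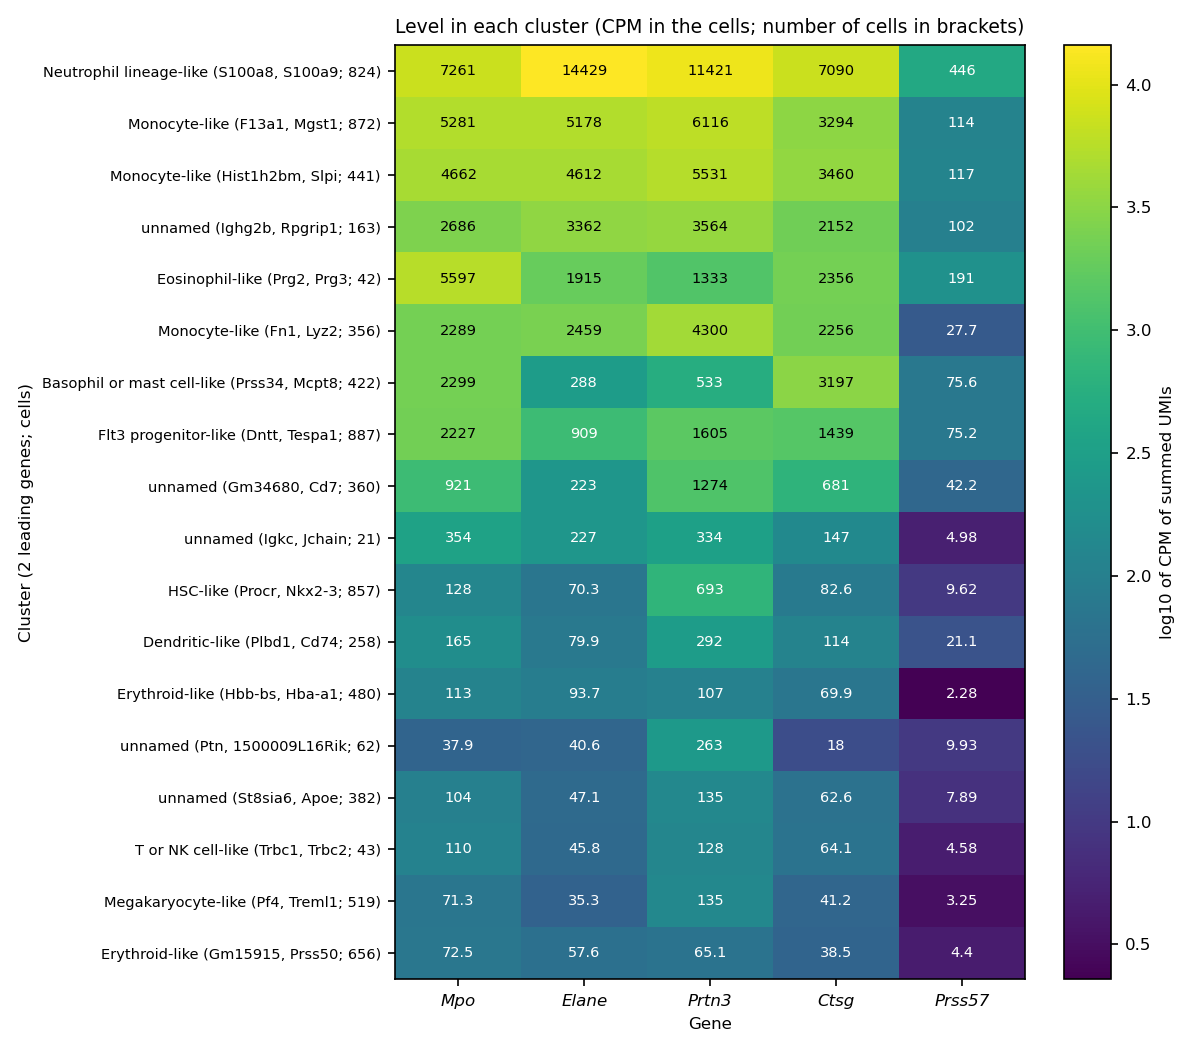
Level of each gene in each of the 18 clusters, printed in CPM and coloured by its log10, with clusters named by their markers, their 2 leading genes and their number of cells, in order of the summed level. The top row is the neutrophil lineage-like cluster, from 446 CPM (Prss57) to 14429 CPM (Elane). The lowest row is the erythroid-like cluster led by Gm15915 and Prss50, with the megakaryocyte-like cluster next above it.

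The make-up of the 5 genes differed between the granulocyte lineages. In the basophil or mast cell-like cluster (422 cells, led by Prss34 and Mcpt8) Ctsg stood at 3197 CPM (3152 to 3244) and Mpo at 2299 CPM (2261 to 2339), with Elane at 288 CPM (275 to 302), Prtn3 at 533 CPM (514 to 552) and Prss57 at 75.6 CPM (68.7 to 83.0). Ctsg made 50.01% and Elane 4.51% of the UMIs of the 5 genes there, against 17.4% and 35.5% in the neutrophil lineage-like cluster. At equal depth Ctsg was found in 95.6% (93.2 to 97.4) and Mpo in 92.7% (89.8 to 95.05) of the basophil or mast cell-like cells, against 11.2% and 20.9% in erythroid-like clusters, at median depths of 12302 and 33466 UMIs. In the eosinophil-like cluster Mpo made 49.1% of the 5 genes' UMIs, with Elane at 1915 CPM (1806 to 2029.5) and Prtn3 at 1333 CPM (1242 to 1429). Doublet calls were 7.11% of the basophil or mast cell-like and 2.38% of the eosinophil-like cells.

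Prtn3 stood furthest above the erythroid level in stem cells, and Prss57 was also above it. In the HSC-like cluster (857 cells, led by Procr and Nkx2-3) it stood at 693 CPM (675 to 711), while Mpo stood at 128 CPM (121 to 136), Elane at 70.3 CPM (64.7 to 76.2), Ctsg at 82.6 CPM (76.6 to 89.0) and Prss57 at 9.62 CPM (7.64 to 11.95). Prtn3 made 70.4% of the UMIs of the 5 genes there. At equal depth Prtn3 was found in 91.7% (89.6 to 93.4) of HSC-like cells, against 20.3% (18.0 to 22.7) in erythroid-like clusters, and Elane in 20.0% (17.4 to 22.9) against 16.4% (14.3 to 18.7). The median depths were 8705 and 33466 UMIs and the unthinned shares of cells with Prtn3 97.8% and 70.6%. In the Hlf-positive gate Prtn3 stood at 529 CPM (516 to 542), 6.38-fold (6.10 to 6.66) the level of erythroid-like clusters. Prss57 was 2.77-fold (2.13 to 3.59) and Elane 1.37-fold (1.27 to 1.46) their level in erythroid-like clusters. In the HSC-like cluster the interval of Elane overlapped with that of erythroid-like clusters, at 73.0 CPM (70.2 to 75.8). From Hlf-positive to Flt3-positive cells with no Cebpa UMI, Prtn3 went to 0.704 (0.669 to 0.740) and Elane to 0.553 (0.486 to 0.628) of its level. Mpo was 3.16-fold (2.95 to 3.38), Ctsg 3.53-fold (3.26 to 3.84) and Prss57 5.12-fold (4.10 to 6.44) their level in Hlf-positive cells. Prtn3 was not at this level in megakaryocyte-like cells (519 cells), where it stood at 135 CPM (127 to 143).

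Erythroid cells have no primary granules, and their UMIs of the 5 genes were used to measure free RNA, mRNA of broken cells that enters every droplet, beside cells that share a droplet with a myeloid cell. The 1136 cells of the 2 erythroid-like clusters held 11175 UMIs of the 5 genes. Mpo stood at 89.8 CPM (86.7 to 92.9), Elane at 73.0 CPM (70.2 to 75.8), Prtn3 at 82.9 CPM (80.0 to 85.9), Ctsg at 51.8 CPM (49.5 to 54.2) and Prss57 at 3.50 CPM (2.93 to 4.16). This was 0.00609 (Elane) to 0.0132 (Mpo) of the level in Cebpe-positive cells. All 5 genes were counted as lower, beside 17.5% of 11081 genes, at a median of 0.00882 of the level against 1.14 over all.

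The UMIs were not spread evenly over these cells. The 10 cells with the most held 41.4% of them, and the variance between cells was 221 times that of a Poisson count at 1 rate per UMI. In 23 cells the 5 genes exceeded 1000 CPM, and in the rest together they stood at 135 CPM, against 301 CPM in all. Without the doublet calls (1096 cells left) the ratio of the variances was 30.5, and Mpo stood at 45.9 CPM (43.7 to 48.2), Elane at 34.9 CPM (33.0 to 36.9), Prtn3 at 41.3 CPM (39.2 to 43.4), Ctsg at 23.9 CPM (22.4 to 25.6) and Prss57 at 2.52 CPM (2.02 to 3.09). A gate of at least 5 Klf1 UMIs and none of Flt3, Cebpa, Cebpe and F13a1 left 825 cells, in which the 5 genes were spread nearly as a Poisson count. The variance was 1.19 times the Poisson one for the sum, and 1.03 (Prtn3) to 1.09 (Ctsg) times for single genes. Among these cells 12 had no UMI of the 5 genes, against 16.01 by the Poisson count, the median was 4 UMIs and the highest 15. The level there was 39.8 CPM (37.5 to 42.1) for Mpo, 31.6 CPM (29.6 to 33.7) for Elane, 36.0 CPM (33.8 to 38.2) for Prtn3, 21.3 CPM (19.6 to 23.0) for Ctsg and 1.95 CPM (1.48 to 2.54) for Prss57. This gate leaves out cells with myeloid markers, so cells joined with a myeloid cell are mostly outside it by its rule.

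**Figure D4:**
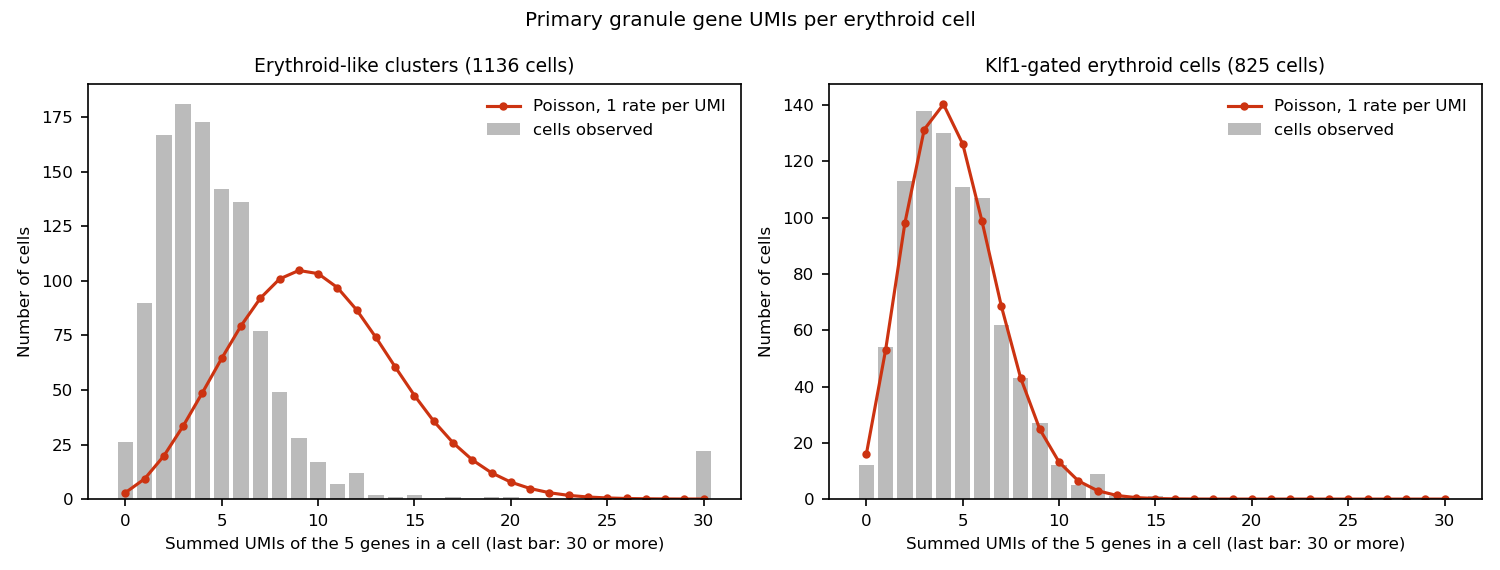
Number of erythroid-like cells (left) and Klf1-gated erythroid cells (right) by their summed UMIs of the 5 genes, as bars, with the number a Poisson count at 1 rate per UMI would give, as a red line. In the left panel most cells lie below the line's peak and a group lies at 30 or more UMIs, while in the right panel the bars follow the line and no cell is above 15 UMIs.

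The make-up of the 5 genes in erythroid cells was set beside that of the rest of the library. In erythroid-like clusters Mpo made 29.8%, Elane 24.2%, Prtn3 27.6%, Ctsg 17.2% and Prss57 1.16% of the UMIs of the 5 genes, and in all other kept cells together 22.8%, 28.3%, 29.3%, 18.6% and 0.878%. In Klf1-gated cells the shares were 30.5%, 24.2%, 27.5%, 16.3% and 1.496%, and in the 574 barcodes at or under the lower limits of the cell filter 34.0%, 25.6%, 22.8%, 16.04% and 1.52%. The Mpo share was thus higher and the Elane share lower in erythroid cells and in these barcodes than in the other cells, and the gap was wider than counting error: the interval of the Mpo share in Klf1-gated cells was 28.98 to 32.0%, and in the other kept cells 22.8 to 22.9%. These shallow barcodes also held Prg2 at 1579 CPM, against 143 CPM in all kept cells and 3.38 CPM in Klf1-gated cells, and Mpo made 49.1% of the 5 genes' UMIs in the eosinophil-like cluster. The part of such transcripts in their make-up was not tested.

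**Figure D5:**
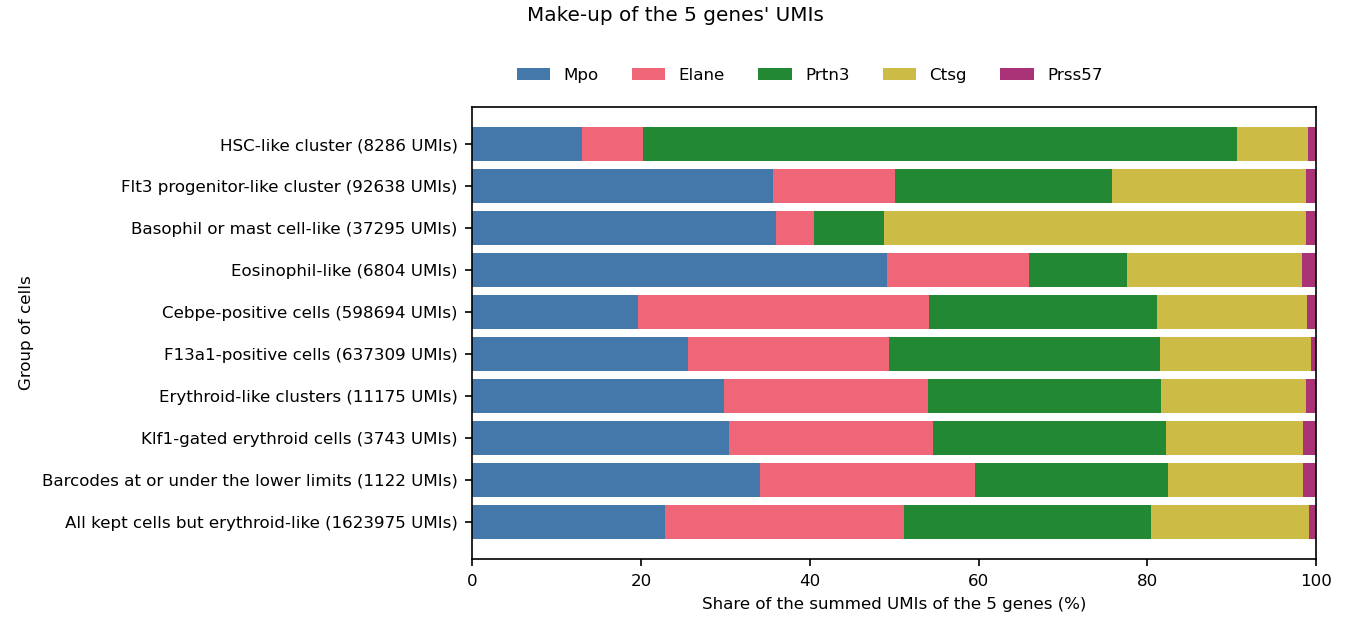
Share (%) of each gene in the summed UMIs of the 5 genes, by group of cells, with the number of those UMIs in brackets. Prtn3 takes 70.4% in the HSC-like cluster and Ctsg 50.01% in the basophil or mast cell-like cluster. In the barcodes under the lower limits Prtn3 takes 22.8%, against 27.6% in erythroid-like clusters and 27.5% in Klf1-gated cells.

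Free RNA adds a number of molecules to a droplet whatever the depth of the cell, so its level in CPM is higher in shallower cells, and UMIs per cell were also compared. Mpo had 1.38 (1.30 to 1.46) UMIs per cell in Klf1-gated and 1.499 (1.43 to 1.57) in erythroid-like cells without doublet calls, 1.37 (1.30 to 1.44) in Hlf-positive, 1.26 (1.19 to 1.34) in HSC-like and 1.27 (1.17 to 1.37) in megakaryocyte-like cells. These groups differ in median depth from 8705 to 35075 UMIs, and their Mpo counts per cell differed little. Other groups differed more. Mpo had 0.558 (0.358 to 0.830) UMIs per cell in T or NK cell-like cells and 0.677 (0.488 to 0.916) in the unnamed cluster led by Ptn and 1500009L16Rik. It had 2.05 (1.88 to 2.24) in dendritic-like cells and 0.666 (0.600 to 0.736) in the barcodes at or under the lower limits. Elane had 1.098 (1.03 to 1.17), 1.15 (1.09 to 1.22) and 0.691 (0.636 to 0.749) UMIs per cell in Klf1-gated, Hlf-positive and HSC-like cells, and Ctsg 0.739 (0.682 to 0.8005), 0.935 (0.876 to 0.996) and 0.812 (0.753 to 0.875). In megakaryocyte-like cells Elane had 0.628 (0.562 to 0.700) and Ctsg 0.732 (0.660 to 0.810). By this count Mpo in both stem cell groups and Elane in Hlf-positive cells overlapped with Klf1-gated cells, Elane in HSC-like cells was lower, Ctsg in HSC-like cells overlapped and Ctsg in Hlf-positive cells was higher. In CPM all 3 were higher in Hlf-positive than in erythroid-like cells, and the part of free RNA in their level was not tested. Prtn3 was furthest apart, with 1.25 (1.17 to 1.33) UMIs per Klf1-gated cell against 6.11 (5.96 to 6.27) in Hlf-positive and 6.81 (6.64 to 6.99) in HSC-like cells. Prss57 had 0.0679 (0.0513 to 0.0881) UMIs per Klf1-gated cell, 0.112 (0.0924 to 0.135) in Hlf-positive and 0.0945 (0.0751 to 0.117) in HSC-like cells. It was thus higher in Hlf-positive cells and overlapped in HSC-like cells. In Flt3-positive cells with no Cebpa UMI, Mpo had 5.61 (5.37 to 5.85), Prtn3 5.59 (5.35 to 5.83), Ctsg 4.29 (4.08 to 4.51) and Prss57 0.745 (0.659 to 0.839) UMIs per cell, all above their count per Klf1-gated cell, which was 0.0679 (0.0513 to 0.0881) for Prss57. Elane, with 0.827 (0.737 to 0.926) UMIs per cell, was below its count per Klf1-gated cell.

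Genes that act with the 5 were followed in the same comparisons, by lists, as counts of genes at 2-fold with the interval on 1 side of 1, among those with 50 or more UMIs in both groups together. Over all genes tested in the same way, 3.74% were counted as higher and 20.3% as lower in Cebpe-positive over Flt3-positive cells, 0.836% and 4.41% within Flt3-positive cells by Cebpa, and 7.93% and 3.51% in F13a1-positive over Cebpe-positive cells. They were 1.74% and 11.6% in the S100a8 and S100a9 bins, 7.71% and 5.58% in the monocyte-gene bins and 16.3% and 17.5% in erythroid-like over Cebpe-positive cells. Of the regulators (Cebpa, Cebpe, Spi1, Gfi1, Runx1, Myb, Irf8), Cebpe-positive over Flt3-positive cells had 2 higher and 2 lower of 7, of which Cebpe itself set the gate. Gfi1, a repressor needed for neutrophils, was 5.99-fold (4.85 to 7.46), and Irf8, which directs cells to the monocyte and dendritic paths, stood at 723 CPM in Flt3-positive and 31.1 CPM in Cebpe-positive cells. Spi1 stood at 177 and 205 CPM. F13a1-positive over Cebpe-positive cells had 1 higher and 3 lower of 7, of which Cebpe, among the lower, itself set the gates. Irf8 stood at 663 CPM in F13a1-positive cells, and Gfi1 at 11.5 CPM there against 65.0 CPM in Cebpe-positive cells. Within Flt3-positive cells by Cebpa there were 2 higher and 1 lower of 6, of which Cebpa itself set the groups, and Irf8 was at 0.478 of its level. The S100a8 and S100a9 bins had 0 higher and 2 lower of 7 and the monocyte-gene bins 1 higher and 3 lower of 7.

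Of the genes for activation, packing and folding (Ctsc, Srgn, Calr, Canx, Cst7, Nkg7), Cebpe-positive over Flt3-positive cells had 4 higher and 0 lower of 6. Srgn, the proteoglycan core on which granule proteases are packed, was 4.22-fold (4.12 to 4.33) and Calr, a chaperone of myeloperoxidase, 2.09-fold (2.04 to 2.15). Ctsc encodes cathepsin C, which trims the serine proteases to their active form, and it stood at 32.4 CPM in Flt3-positive, 28.2 CPM in Cebpe-positive and 82.3 CPM in F13a1-positive cells. F13a1-positive over Cebpe-positive cells had 1 higher and 3 lower of 6, with Ctsc 2.92-fold (2.66 to 3.22) and Srgn at 0.252 of its level. The other comparisons had 0 higher and 0 lower of 6 (Cebpa within Flt3-positive cells), 2 higher and 0 lower of 6 (S100a8 and S100a9 bins) and 1 higher and 3 lower of 6 (monocyte-gene bins). Of the inhibitors (Serpinb1a, Slpi, Stfa1, Serpina3g), Cebpe-positive over Flt3-positive cells had 2 higher and 0 lower of 3, with Serpinb1a, an inhibitor of elastase, cathepsin G and proteinase 3, 2.72-fold (2.59 to 2.86). Serpinb1a stood at 254 CPM in F13a1-positive against 622 CPM in Cebpe-positive cells, and Slpi, another inhibitor of elastase, at 651 against 224 CPM. 

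Of the other primary granule and lysosome genes (Ms4a3, Bpi, Lyz2, Ctsd, Cd63, Gusb), Cebpe-positive over Flt3-positive cells had 2 higher and 1 lower of 5. Ms4a3, a marker of granulocyte-monocyte progenitors, was 42.2-fold (38.2 to 46.7) and Cd63, a membrane protein of primary granules, 8.60-fold (8.03 to 9.23), while the lysosomal enzymes Ctsd, 1.0998-fold (1.02 to 1.18), and Gusb, 1.102-fold (1.002 to 1.21), were not counted. In the monocyte-gene bins, with 1 higher and 2 lower of 5, Lyz2 (lysozyme) was 12.4-fold (11.8 to 13.1) where the 5 genes were lower, and Ms4a3 was at 0.280 of its level. The later granule genes (Ltf, Camp, Ngp, Lcn2, Mmp8, Mmp9, Chil3, Fcnb) were hardly detected: in Cebpe-positive cells Fcnb stood at 33.7, Lcn2 at 33.9 and Camp at 5.92 CPM. In the S100a8 and S100a9 bins they had 2 higher and 0 lower of 3, with Fcnb, a lectin of the ficolin family, at 0.276 CPM in the lowest and 152 CPM in the highest bin. Of the other granule protease genes (Gzmb, Mcpt8, Prss34, Cpa3, Cma1), which belong to basophils, mast cells and lymphocytes, 3 higher and 0 lower of 3 were counted within Flt3-positive cells by Cebpa, with Mcpt8 at 234 against 12.2 CPM. In erythroid-like over Cebpe-positive cells no gene of these lists was counted as higher: 0 higher and 6 lower of 7 regulators, 0 higher and 5 lower of 6 genes for activation, packing and folding, 0 higher and 3 lower of 3 inhibitors, 0 higher and 3 lower of 5 primary granule and lysosome genes, 0 higher and 4 lower of 4 later granule genes and 0 higher and 3 lower of 3 other proteases. Cebpe, among the lower regulators, itself set the gate of the Cebpe-positive cells.

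The genes most like the 5 in pattern were sought over the 15 clusters of 50 or more cells, by Pearson's correlation of log2(CPM + 10), among 5026 genes at 50 CPM or more in some cluster. These correlations are descriptions over clusters of 1 library that share depth and free RNA. For the sum of the 5 genes the highest were Anxa3 (0.98), Hk3 (0.98), Alas1 (0.96), Igsf6 (0.95), 1700020L24Rik (0.95), Adssl1 (0.95), Hp (0.94), Plod3 (0.94), Ms4a3 (0.93) and Gapdh (0.93). Alas1 encodes the enzyme that starts haem synthesis outside the red cell line, Hk3 a hexokinase and Hp haptoglobin. For single genes the leading ones were Ctsg for Mpo (0.995) and Mpo for Ctsg, Alas1 for Elane (0.98), Lbp for Prtn3 (0.96) and Mpo for Prss57 (0.92). Then came Hk3 (0.98), Anxa3 (0.97), Elane and Igsf6 (0.94) for Mpo, and Trem3 (0.98), Hp (0.97), Tnfsf13 (0.96) and Cldn15 (0.96) for Elane. For Prtn3 they were Adssl1 (0.96), Mgst2 (0.95), Alas1 (0.95) and Anxa3 (0.94), for Ctsg Hk3 (0.98), Anxa3 (0.97), 1700020L24Rik (0.95) and Ap3s1 (0.95), and for Prss57 Alas1 (0.92), Ostc (0.92), Lta4h (0.92) and Ctsg (0.92). Among the 5 genes the correlation over clusters ranged from 0.88 (Prtn3 with Prss57) to 0.995 (Mpo with Ctsg).

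From cell to cell the order of the pairs was another than from cluster to cluster. Within the 795 Cebpe-positive cells the Spearman correlation of CPM was 0.87 for Elane with Prtn3, which lie next to each other on chromosome 10, 0.81 for Prtn3 with Ctsg, on another chromosome, and 0.79 for Elane with Ctsg. Mpo had the lowest values, 0.52 with Elane, 0.49 with Ctsg and 0.44 with Prtn3. Prss57, with few UMIs per cell, had 0.67 with Elane. Within the 1895 F13a1-positive cells Mpo had 0.77 with Elane, 0.78 with Prtn3 and 0.77 with Ctsg, and Elane with Prtn3 had 0.86. The cells of a gate share the library and a denominator and differ in depth, so these values are given as descriptions.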

How the data were processed

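One deposited library was analysed, a filtered matrix of UMI counts that the authors made with Cell Ranger 6.0.2 on mm10 from 10x Genomics 3′ v3.1 libraries (the labels describe a bulk RNA kit, the study's methods the 10x kit). It holds 32285 genes and 8817 barcodes. A further library of the study was not analysed here. The study's filter was applied (UMIs between 1000 and 50000, genes between 1000 and 6500, a mitochondrial share below 7%), and 7645 cells were kept, with depths from 1592 to 49991 UMIs. Scrublet in scanpy 1.11.5 called 265 doublets (3.47% of cells), which were kept and removed as an alternative. Cells were clustered in R 4.3.3 with Seurat 5.3.0 and sctransform 0.4.2, as the study's methods state: SCTransform was run 2 times, with the mitochondrial share and then also the S minus G2/M score regressed out. The number of components (50), the resolution (0.8) and the seed (1) were chosen here, the 5 genes were left out of the components, and 1 library needed no integration. A cluster was called X-like where the mean log2 ratio of a marker list to the other clusters was at least 0.5 (with 10 CPM added), at least 3 markers were at 10 CPM and 1.5-fold, its own list led among its 10 leading genes and at most 20% of its cells were doublet calls. Each gene's counts were summed over the cells of a group and divided by all UMIs of the group (CPM). For shares of cells, each cell was thinned to 5000 UMIs, which left out 99 shallower cells. A fold was counted at 2-fold or more with its 95% interval on 1 side of 1, among genes with at least 50 UMIs in both groups together. Intervals were computed with scipy 1.17.1 and cover counting error only, and with 1 library no test was made. The summing and folds were tested on simulated data. The genes named beside the 5 were members of the lists given (1 gene of the lists is not reported here and left out of the counts), and the 5 (for each gene) or 10 (for the sum) highest correlations over clusters, and genes on the other strand or beside a member. The 5 genes and the lists were chosen with earlier results of these data known. Alternatives changed the marker UMIs of a gate, the cell filter, the denominator, doublets, the way of averaging and the clustering.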

Additional observations from a re-analysis of the deposited data

Results flagged for a closer look

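UMIs of the 5 genes were also present in barcodes that the cell filter removed, which no fold of the main comparisons used. Those at or under the lower limits were used above for the make-up of the 5 genes. The summed level of the 5 genes was 1329 CPM in the 574 barcodes at or under the lower limits, 3670.4 CPM in the 213 at or over the upper limits and 4059 CPM in the 385 over the mitochondrial limit alone. Each was above the 301 CPM of the erythroid-like clusters, taken as the level in cells that should lack these genes. In UMIs per barcode, Mpo stood at 0.666 and Prtn3 at 0.446 in the shallow barcodes, below the 1.38 and 1.25 of Klf1-gated erythroid cells, at a median depth of 1321 against 35075 UMIs.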

How the results depend on the processing

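The counts of members higher or lower stayed within 1.5 times the main count under every alternative run for them, save 1. With marker gates at 1 UMI, 1 of the 5 genes in place of 3 was lower in the highest monocyte-gene bin, and Prtn3 reversed to 1.27-fold. The cause was not tested. The 5 genes were highest in the neutrophil lineage-like cluster except at resolution 1.2, where that held for 2 genes, and with 30 components, where it held for 1. In both, the others were highest in a cluster led by Wfdc21 and S100a8 that stayed unnamed. Of the single folds of the 5 genes, 141 values under other settings moved within their counting interval, 163 moved beyond it in the same direction and 1 reversed. The fold of Elane in Cebpe-positive over Flt3-positive cells ranged widest, from 30.3-fold to 155-fold, the latter with 1 class of cells per gate. That setting and the 10 bins were chosen after seeing the data. The erythroid comparison was not run without a cell filter, because only kept cells were clustered. No paired analysis was possible because there is 1 library. Depth limits Prss57 and Elane in Flt3-positive cells with no Cebpa UMI, where they had 0.745 (0.659 to 0.839) and 0.827 (0.737 to 0.926) UMIs per cell.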
